A study of Mus musculus with 12 samples.

Results

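The genes described here are 40 genes that type I interferon induces, taken by symbol from the 24728 genes of a count table of mouse bone-marrow derived macrophages; all 40 had a row and all 40 passed the low-count filter, among 13414 genes tested. The labels place the macrophages, named BMDMs and sorted as dTomato+ cells, in ex vivo assays with dissociated brain tumor. By treatment there are 4 groups of 3 libraries: Full Tumor, Tumor without Myelin, Myelin Alone and Control. An mn number, 957, 958 or 016, marks the libraries, and every number occurs once per group. The study asks how macrophages of glioblastoma take up and reuse myelin, the lipid-rich sheath of axons. The labels of these libraries give no strain, age, exposure time or tumor model, and say neither what "mn" stands for nor what the Control cells were given. Since no label says whether separate animals gave them, the spread between libraries, and with it every p-value, may be technical.

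Type I interferons are cytokines that cells release after sensing viral or misplaced nucleic acid. They bind the receptor made of Ifnar1 and Ifnar2, and the kinases Jak1 and Tyk2 then activate transcription factors that bind the interferon-stimulated response element (ISRE) in the promoters of target genes. Their products sense viral RNA, block viral entry or replication, attach the ubiquitin-like protein Isg15, and feed back on the pathway. Macrophages are both producers of these cytokines and responders to them.

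Promoter sequences are shown first because the ISRE is the element through which the pathway acts on such genes. RefSeq windows (GRCm38.p6, from 250 bases before to 50 bases after a gene's start) matched 29 of the 40 genes. The ISRE core was searched as GAAANNGAAA, which is TTTCNNTTTC when read on the other strand. It lay in a window of 13 of the 29 (44.8%) against 3.99% of 27025 genes. The GAS element, TTCNNNGAA, which reads the same on both strands and can overlap an ISRE, lay in 8 of the 29 (27.6%) against 9.55%. A match is a description of the letters, not a bound site. The 6 genes below hold the core and have their values given in every library further down; each stretch runs 5′ to 3′ on the gene's strand, with matches to the core in capitals. Where the match lies outside the exons of GENCODE M21, the stretch stops before the next exon base; that of Slfn5 lies in the gene, between exons, since GENCODE also has a transcript that starts further upstream. For Ifitm3 and Ifih1 the match lies in an exon and only 30 bases around it are shown.
Ifit3, chr19:34583279-34583528, plus strand, 2 matches that start 156 and 122 bases before the gene's start: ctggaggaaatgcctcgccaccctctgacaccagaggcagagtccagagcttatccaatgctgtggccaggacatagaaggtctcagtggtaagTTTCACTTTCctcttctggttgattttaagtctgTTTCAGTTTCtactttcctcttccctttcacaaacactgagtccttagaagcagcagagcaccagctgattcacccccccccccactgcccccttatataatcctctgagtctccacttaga
Slfn5, chr11:82951852-82951984, plus strand, 1 match that continues into a run of A: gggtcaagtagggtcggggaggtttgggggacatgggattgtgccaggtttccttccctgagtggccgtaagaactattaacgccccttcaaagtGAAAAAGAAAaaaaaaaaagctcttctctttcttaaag
Ifitm3, chr7:141010714-141010743, minus strand, 2 matches: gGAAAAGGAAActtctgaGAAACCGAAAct
Oas1a, chr5:120907526-120907775, minus strand, 2 overlapping matches that start 20 and 14 bases before the gene's start: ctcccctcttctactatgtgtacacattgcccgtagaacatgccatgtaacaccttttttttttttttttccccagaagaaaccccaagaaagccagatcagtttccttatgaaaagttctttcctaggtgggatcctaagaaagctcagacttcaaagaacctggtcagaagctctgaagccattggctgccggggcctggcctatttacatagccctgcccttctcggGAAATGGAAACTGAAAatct
Oas3, chr5:120777662-120777909, minus strand, 1 match: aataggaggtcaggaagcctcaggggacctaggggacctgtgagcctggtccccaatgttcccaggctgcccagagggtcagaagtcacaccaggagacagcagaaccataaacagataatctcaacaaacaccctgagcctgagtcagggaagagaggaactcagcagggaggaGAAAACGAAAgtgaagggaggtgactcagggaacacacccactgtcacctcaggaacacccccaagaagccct
Ifih1, chr2:62646206-62646235, minus strand, 1 match: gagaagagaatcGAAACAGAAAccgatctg

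Libraries held 17071673 to 21689624 counts, and 3 counts, the limit a count of 0 allows, stood at 0.142 to 0.182 CPM, the count scaled by the library total times its TMM factor. Libraries of number 016 differed from the others at many genes. Of the 13414 genes, 4525 (33.7%) differed between 016 and the mean of 957 and 958. The test was edgeR's quasi-likelihood test with group and number, at an adjusted p under 0.05. Neither 957 nor 958 was set against the other numbers in this way. The numbers pair the libraries, and values from the fit with the number as a further term are called "with the block". Summed macrophage markers were at 13307 to 18164 CPM, with all 9 of 9 listed genes having a row, in every library.

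In numbers 957 and 958 all 40 genes were higher in each of the 4 libraries with tumor material than in each of the 4 without, where 3.02% of the 13414 tested genes showed such a separation. In number 016, the 2 libraries with tumor were both above the 2 without for only 6 of the 40 (Zbp1, Mx1, Eif2ak2, Samd9l, Parp9 and Dtx3l), against 25.4% of all genes. Over the 3 numbers together, all 6 tumor libraries were above all 6 others for Mx1 and Parp9 (0.574% of all genes). Mx1 was low, and in 016 the margin was small, at 2.36 CPM in Full Tumor against 1.96 in Control. Its Myelin Alone values for 957 and 958, 0.053 and 0 CPM, were under the limit of 3 counts. The median of the 40 genes, as log2(CPM + 0.5) relative to each gene's mean over the 12 libraries, was 1.09 and 1.11 in Full Tumor and 1.09 and 1.47 in Tumor without Myelin for numbers 957 and 958. It was −0.50 and −0.56 in Control and −0.76 and −0.66 in Myelin Alone. For number 016 it was −0.26 in Control, −0.79 in Myelin Alone, −0.28 in Tumor without Myelin and −0.78 in Full Tumor. The tumor libraries of 016 thus lay within the range of the libraries that had no tumor.

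**Figure D1:**
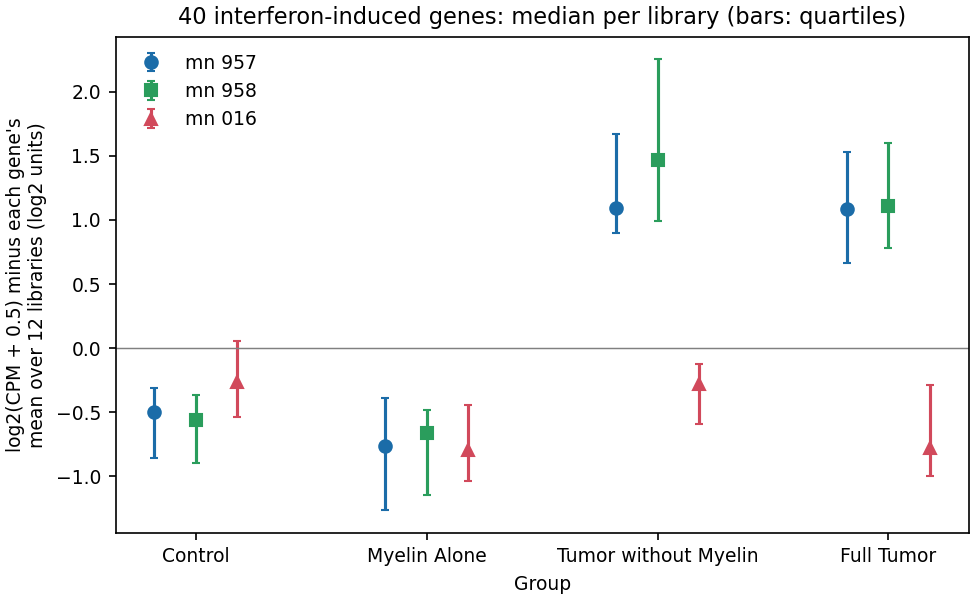
Median of the 40 interferon-induced genes in each library (y axis: log2(CPM + 0.5) minus the gene's mean over the 12 libraries; x axis: group; symbols: mn number; bars: lower and upper quartile over the genes). The 4 tumor libraries of numbers 957 and 958 have medians of 1.09 to 1.47, and the other 8 libraries, both tumor libraries of 016 included, have medians below 0.

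Sensors of viral RNA and DNA come first in the pathway. Zbp1 binds nucleic acid in the left-handed Z form and can start cell death; it was at 6.12, 8.67 and 6.03 CPM in Control (957, 958 and 016, the order used throughout), 6.74, 6.67 and 3.44 in Myelin Alone, 41.0, 59.9 and 6.86 in Tumor without Myelin, then 42.2, 44.0 and 6.19 in Full Tumor. Ifih1 (MDA5), a sensor of long double-stranded RNA, was at 27.5, 25.6 and 43.3 CPM in Control, 38.0, 18.1 and 25.7 in Myelin Alone, 79.2, 56.5 and 42.1 in Tumor without Myelin, then 59.8, 46.9 and 33.5 in Full Tumor. The 4 tumor libraries of 957 and 958 were the 4 highest for Zbp1 and for Ifih1, and Control 016 was close to Tumor without Myelin 016 for both. Dhx58 (LGP2), which modulates Ifih1, ran from 12.5 to 24.9 CPM outside those 4 libraries and from 63.5 to 82.5 CPM in them.

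Antiviral effectors are the largest class, with 20 genes. Ifit3, of the same family as Ifit1 and Ifit2, was at 4.21, 1.92 and 17.3 CPM in Control, 1.16, 1.27 and 2.11 in Myelin Alone, 120, 169 and 10.8 in Tumor without Myelin, then 89.1, 105 and 3.92 in Full Tumor. Oasl1, a member of the oligoadenylate synthetase family that in mice limits translation of Irf7, was at 5.96, 1.04 and 9.90 CPM in Control, 2.74, 0.055 and 3.82 in Myelin Alone, 43.7, 42.2 and 6.37 in Tumor without Myelin, then 34.9, 40.9 and 2.79 in Full Tumor. In number 016 both genes were highest in Control. The Myelin Alone 958 value of Oasl1 lies under that library's limit of 0.165 CPM, so its fold change in 958 depends on the prior count of the fit.

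Oas1a and Oas3 make the oligoadenylate that activates the endonuclease RNase L. Oas1a was at 79.0, 84.4 and 126 CPM in Control, 81.2, 92.1 and 104 in Myelin Alone, 264, 295 and 82.6 in Tumor without Myelin, then 239, 254 and 73.5 in Full Tumor. Oas3 was at 98.0, 82.9 and 67.1 CPM in Control, 84.1, 66.9 and 48.1 in Myelin Alone, 186, 216 and 49.4 in Tumor without Myelin, then 212, 179 and 47.3 in Full Tumor. For Oas1a the 2 tumor libraries of 016 were the lowest of that number, whereas in 957 and 958 they exceeded the others by more than 2-fold. Ifit3 and Oas1a share 51.2% and 57.6% of their 50-base stretches of exon with other genes, mostly Ifit3b and Oas1g, so their reads cannot be fully told apart.

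Ifitm3 stops viruses from fusing with endosomal membranes, and per kilobase of exon it was the highest of the 40 genes, at a mean of 552 CPM per kilobase over the 12 libraries, before Bst2 (256), which tethers budding virus to the cell surface. Ifitm3 was at 189, 217 and 463 CPM in Control, 108, 163 and 434 in Myelin Alone, 496, 618 and 417 in Tumor without Myelin, then 502, 532 and 351 in Full Tumor. The 016 libraries without tumor therefore came close to the tumor libraries of 957. Slfn5, of the Schlafen family, was at 49.0, 47.7 and 39.2 CPM in Control, 47.3, 58.3 and 30.4 in Myelin Alone, 138, 179 and 36.5 in Tumor without Myelin, then 134, 127 and 35.0 in Full Tumor. Mx2, a dynamin-like GTPase, was low: 0.479, 0.329 and 0.686 CPM in Control, 0.105, 0 and 0.721 in Myelin Alone, 5.34, 8.28 and 1.03 in Tumor without Myelin, then 6.76, 7.47 and 0.142 in Full Tumor. Its Myelin Alone values for 957 and 958 are under the limit of 3 counts.

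**Figure D2:**
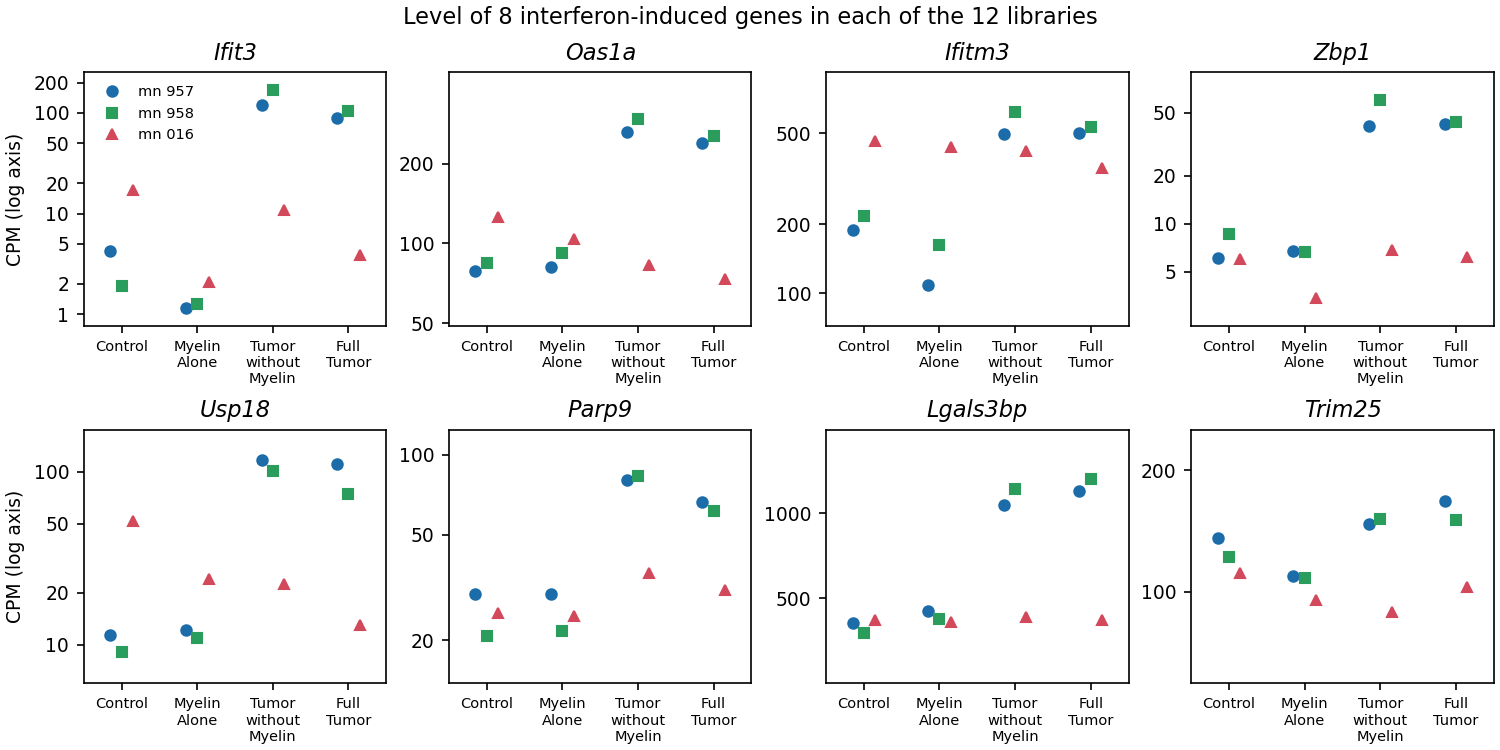
CPM (y axis, log scale) of 8 of the 40 genes in each library by group (x axis) and mn number (symbols). Tumor libraries of 957 and 958 stand above the other libraries of those numbers in every panel, while those of 016 do not for Ifit3, Oas1a, Ifitm3, Usp18, Lgals3bp and Trim25.

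Isg15 is attached to proteins by ligases and removed by Usp18, which also restrains the receptor. Usp18 was at 11.4, 9.05 and 52.1 CPM in Control, 12.2, 10.9 and 24.1 in Myelin Alone, 117, 100 and 22.5 in Tumor without Myelin, then 111, 74.7 and 13.0 in Full Tumor. Trim25, a ubiquitin ligase of the RNA sensor pathway, was at 136, 122 and 111 CPM in Control, 109, 108 and 95.3 in Myelin Alone, 147, 152 and 89.3 in Tumor without Myelin, then 168, 151 and 103 in Full Tumor. Usp18 was highest in Control among the 016 libraries, and Trim25 had the narrowest range of the genes whose values are given here.

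Parp9 and Dtx3l form a complex of an ADP-ribosyltransferase and a ubiquitin ligase. Their genes lie head to head and overlap by 682 bases, and without a stated strand setting their shared reads cannot be told apart. Parp9 was at 29.9, 20.8 and 25.3 CPM in Control, 29.9, 21.7 and 24.8 in Myelin Alone, 80.6, 83.0 and 35.9 in Tumor without Myelin, then 66.4, 61.6 and 30.9 in Full Tumor. Dtx3l was at 41.5, 35.0 and 28.0 CPM in Control, 32.8, 34.7 and 20.0 in Myelin Alone, 76.7, 79.1 and 35.0 in Tumor without Myelin, then 65.2, 67.3 and 31.1 in Full Tumor. For both genes the tumor libraries of 016 were above the others of 016, though lower than in the tumor libraries of 957 and 958. Parp14, another ADP-ribosyltransferase, was at 39.9, 51.6 and 37.8 CPM in Control, 26.0, 34.2 and 25.1 in Myelin Alone, 97.3, 129 and 35.3 in Tumor without Myelin, then 88.6, 104 and 27.1 in Full Tumor. Sp100, a scaffold of PML nuclear bodies, was at 42.7, 40.8 and 69.5 CPM in Control, 52.9, 42.7 and 48.2 in Myelin Alone, 144, 110 and 63.9 in Tumor without Myelin, then 110, 105 and 58.9 in Full Tumor.

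The last class holds interferon-induced genes of other or less defined roles. Lgals3bp, a secreted galectin-binding glycoprotein, was at 410, 378 and 421 CPM in Control, 450, 423 and 411 in Myelin Alone, 1068, 1216 and 430 in Tumor without Myelin, then 1193, 1314 and 418 in Full Tumor. Ly6e, a lipid-anchored surface protein that hinders coronavirus entry, was at 243, 234 and 191 CPM in Control, 178, 241 and 156 in Myelin Alone, 534, 783 and 162 in Tumor without Myelin, then 634, 702 and 144 in Full Tumor. Lgals3bp was nearly level across the 4 libraries of 016. Xaf1, which promotes apoptosis, was at 28.4, 32.3 and 39.7 CPM in Control, 23.3, 41.4 and 29.8 in Myelin Alone, 110, 151 and 27.3 in Tumor without Myelin, then 106, 133 and 20.2 in Full Tumor. Ifi44, whose name records its induction, was at 3.57, 0.823 and 1.52 CPM in Control, 0.369, 0.110 and 1.77 in Myelin Alone, 31.3, 38.1 and 2.31 in Tumor without Myelin, then 21.1, 16.0 and 1.65 in Full Tumor.

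Whether tumor material changed these genes was tested over all 12 libraries, 6 with tumor against 6 without. With group as the only term, 0 of the 40 were called in edgeR's quasi-likelihood test (10 of all 13414 genes, 0.0745%, were called). In that test 39 of the 40 had an unadjusted p under 0.05, against 775 of all genes (5.78%). The lowest adjusted p of the 40 was 0.0631, for Ifit2. The median log2 fold change of the 40 was 1.25, against 0.003 over all tested genes. With the block 16 of the 40 rose (302 genes, 2.25%, were called; 1.63% were higher): Sp100, Zbp1, Adar, Oas2, Samd9l, Trim30a, Slfn5, Slfn8, Dhx58, Lgals3bp, Ifi27l2a, Parp14, Dtx3l, Parp9, Eif2ak2 and Ifit2. Dtx3l had the lowest adjusted p, 0.00411 (log2 fold change 0.83 ± 0.12, approximate SE), followed by Parp9 (1.16 ± 0.19, 0.00850). Without any 1 of the 957 or 958 libraries, 3 to 6 of the 40 and 144 to 293 of all genes were called with the block. Without any 1 of the 016 libraries, 18 to 32 of the 40 and 202 to 285 of all genes were called. DESeq2 with group only called 24 of the 40, and its count over all genes is given with the other settings below.

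Without number 016, a setting chosen after the data had been seen, the fit with the block called 39 of the 40 higher with tumor (1.67% of 13510 genes were called higher). Log2 fold changes ran from 0.38 (Trim25, adjusted p = 0.0746) to 5.93 ± 0.25 (Ifit3, 2.94e-06), with a median of 1.67. Usp18 rose by 3.20 ± 0.13, Oasl2 by 2.61 ± 0.11, Ifi44 by 5.21 ± 0.41 and Lgals3bp by 1.53 ± 0.07. Each of these tests set 2 Full Tumor and 2 Tumor without Myelin libraries against 2 Control and 2 Myelin Alone libraries. Ifi44 was at 0.110 CPM in Myelin Alone 958, under that library's limit of 0.165 CPM, so the size of its rise is less certain.

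The difference of the tumor effect between the numbers was tested directly, in a fit with tumor by number and 4 residual degrees of freedom. It was planned with earlier results known in which the interferon medians differed in 016. Its calls therefore describe a difference already seen in these data. Every number occurs once per group, so the libraries with tumor of a number stand as its replicates, as do those without. The fit takes myelin to have the same effect in every number. Its standard errors and p-values, also those within a number, thus measure how the myelin differences vary between numbers, not the spread of repeated libraries. Of 13414 genes 39 (0.291%) were called, 38 of them with a lower effect in 016 (0.283%), and 18 of the 39 were among the 40 genes here. All 18 had a smaller tumor effect in 016. Over the 40 genes the effect in 016 was lower than the mean of 957 and 958 by 0.17 to 6.09 on the log2 scale, in 40 of 40, with a median difference of −1.84. The 18 comprised Oas1a, Oas2, Oas3, Oasl1, Oasl2, Ifit3, Cmpk2 and Ifitm3 of the effectors, the sensor Dhx58, Usp18 and Trim30a, Parp14, and Lgals3bp, Xaf1, Ly6e, Rtp4, Ifi35 and Ifi27l2a.

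Oas1a had the smallest adjusted p of the 40, 0.00145: its tumor effect was 1.65 ± 0.13 in 957, 1.63 ± 0.13 in 958 and −0.56 ± 0.12 in 016. For Lgals3bp the effects were 1.39 ± 0.09, 1.66 ± 0.09 and 0.03 ± 0.09 (adjusted p of the difference 0.00183). Ifit3 had effects of 5.59 ± 0.45, 6.56 ± 0.48 and −0.01 ± 0.43 (0.00375), and Usp18 of 3.26 ± 0.32, 3.10 ± 0.32 and −1.10 ± 0.30 (0.00473). Samd9l, an effector whose effects were 1.10, 0.45 and 0.60, had the smallest difference of the 40 (adjusted p = 0.656). Zbp1 (2.68, 2.76 and 0.49) and Parp9 (1.29, 1.75 and 0.41) missed the threshold, at adjusted p values of 0.0561 and 0.0820.

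**Figure D3:**
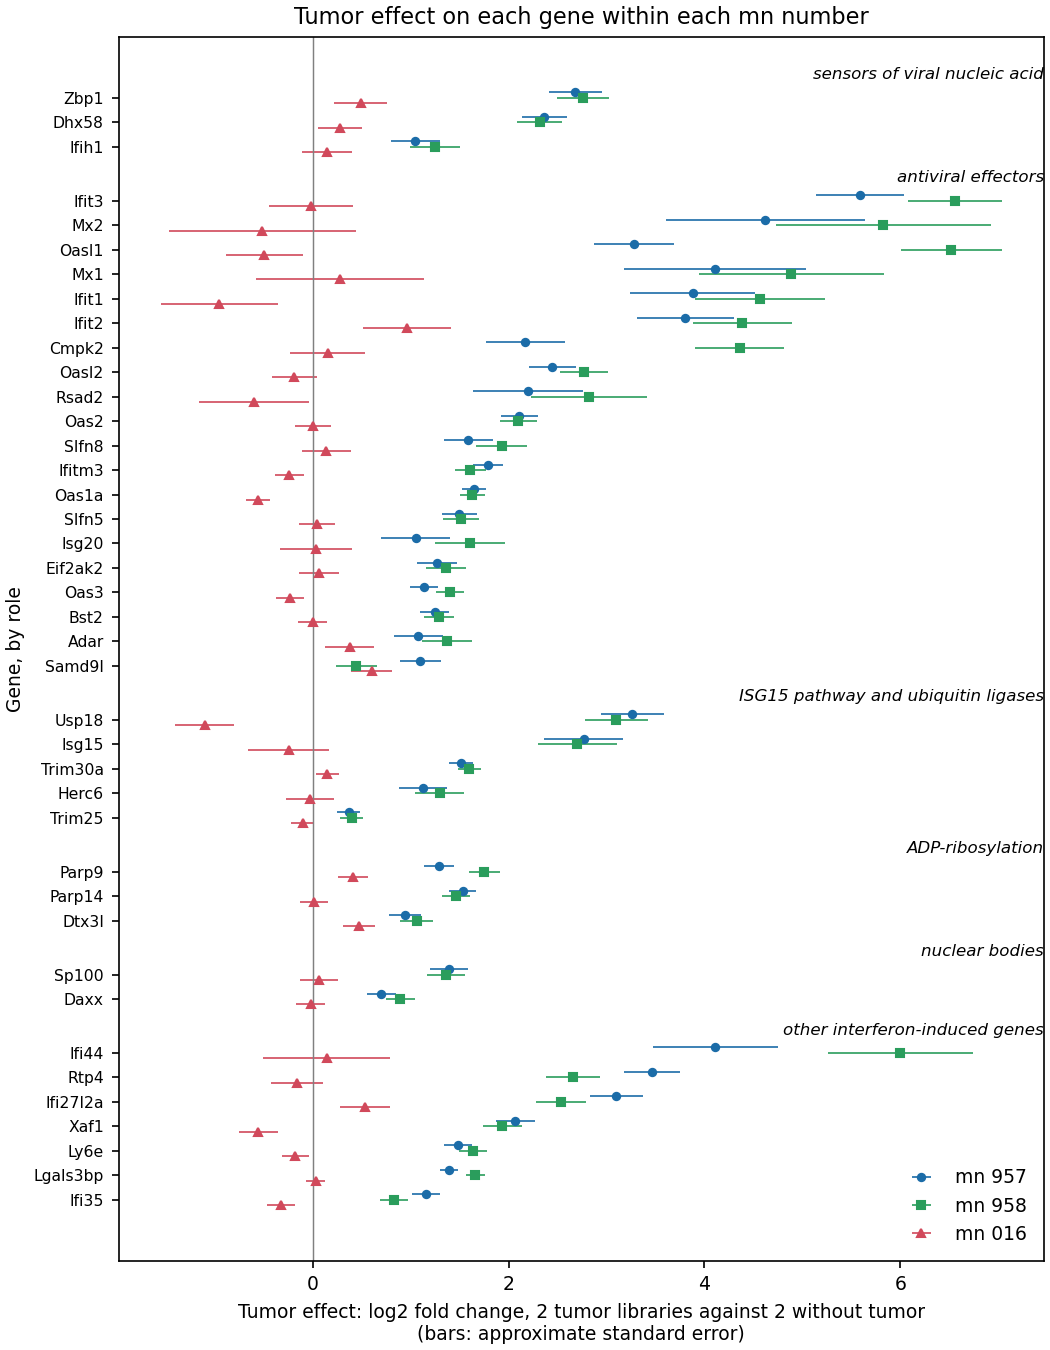
Tumor effect of each of the 40 genes (rows, by role) within each mn number (symbols; x axis: log2 fold change of 2 libraries with tumor against 2 without; bars: approximate standard error). Points of 957 and 958 are above 0 for all 40 genes, from 0.37 to 6.56, whereas those of 016 lie on both sides of 0, from −1.10 to 0.96.

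Within the numbers, the same fit called the tumor effect higher for 31 of the 40 in 957 (0.798% of all genes), 36 in 958 (1.19%) and 0 in 016 (0.887%). The lowest adjusted p of the 40 in 016 was 0.0704 (Oas1a, on the lower side). The medians were 1.62, 1.71 and 0.01. Of all genes, this fit called the tumor effect in either direction for 169 (1.26%) in 016, against 118 in 957 and 182 in 958. By class, the sensors were called in 2, 3 and 0 of 3 for 957, 958 and 016, the effectors in 15, 17 and 0 of 20, the Isg15 pathway and ubiquitin ligases in 3, 4 and 0 of 5, the ADP-ribosylation genes in 3, 3 and 0 of 3, the nuclear body genes in 1, 2 and 0 of 2, and the remaining class in 7, 7 and 0 of 7.

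How many genes were called in this test depended on the 016 libraries. Without Full Tumor 016 it called 1 gene and 0 of the 40, without Tumor without Myelin 016 it called 7 genes and 5 of the 40, and without Control 016 it called 17 genes and 12 of the 40. Without Myelin Alone 016 there were 71 genes and 23 of the 40. Leaving out any library of 957 or 958 gave 20 to 42 genes and 13 to 20 of the 40. The size of the difference moved less: its median over the 40 genes was between −1.94 and −1.71 in all these settings.

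**Figure D4:**
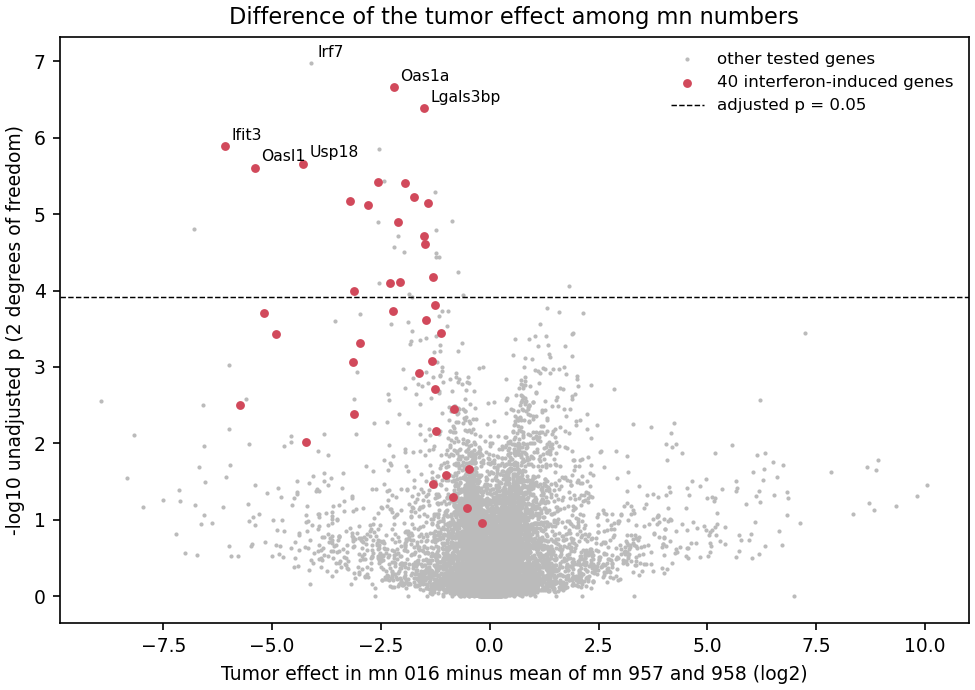
Each tested gene by the difference of its tumor effect (x axis: number 016 minus the mean of 957 and 958, log2) and its unadjusted p (y axis: −log10, 2 degrees of freedom). The 40 genes (large points) all lie left of 0, and 18 of them are above the dashed line, which marks an adjusted p of 0.05.

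Other values moved with the number. Conventional dendritic cell markers (6 of 6 with a row) summed to 4.96 to 10.3 CPM in 016. In 957 and 958 they summed to 0.342 to 4.54 CPM with tumor and 0.276 to 1.98 CPM without. For oligodendrocyte markers (5 of 7 with a row) the sums overlapped between numbers, at 111 to 161 CPM. So did those of lymphocyte markers (4 of 9, 0.799 to 6.38) and of tumor cell and oligodendrocyte precursor markers (8 of 8, 6.11 to 24.2). Neutrophil and granulocyte precursor markers (10 of 10 with a row) summed to 305 CPM in Control 016, 145 in Myelin Alone 016, 61.3 in Tumor without Myelin 016 and 16.0 in Full Tumor 016, against 10.4 to 114 in the tumor libraries of 957 and 958 and 23.2 to 87.5 in the others. Microglia markers (8 of 9 with a row) were higher with tumor in each number: they summed to 733 to 854 CPM in the tumor libraries of 957 and 958 against 544 to 683 in their others, and in 016 to 963 in Full Tumor and 1123 in Tumor without Myelin against 403 in Control and 650 in Myelin Alone. Endothelial markers (3 of 5 with a row) summed to 15.9 to 22.4 CPM in the tumor libraries of 957 and 958 against 8.94 to 13.0 in their others, and in 016 to 11.4 in Full Tumor and 12.2 in Tumor without Myelin against 17.8 in Control and 12.3 in Myelin Alone, so that they separated as most of the 40 genes did. Most of that sum was Kdr, at 8.78 to 22.3 CPM; Pecam1 was at 0 to 3.82 and Cdh5 at 0 to 0.770. Plasmacytoid dendritic cells are the classic high producers of type I interferon; the 5 of their 6 markers with a row summed to 1.18 to 7.60 CPM, at 2.79 to 3.60 in the tumor libraries of 957 and 958 and at 2.58 to 6.84 in their others, with 1 to 3 of the 5 at 0 in each library. The share of mitochondrially encoded transcripts was 0.287% to 0.557% in 016 and 0.557% to 0.941% in 957 and 958. The part of these in the difference was not tested. In bulk libraries, fewer cells of a type and less RNA per cell cannot be told apart.

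Full Tumor against Control, the comparison with the complete tumor material, split by number in the same way. In 957 and 958 all 40 genes were higher in Full Tumor, with 34 and 32 of them at least 2-fold (4.21% and 6.58% of all genes) and medians of 1.49 and 1.63 on the log2(CPM + 0.5) scale. In 016, 9 of the 40 were higher, 0 of them 2-fold (5.29% of all genes), and 7 were at least 2-fold lower (3.13% of all genes), with a median of −0.38. Over the 3 pairs, edgeR's quasi-likelihood test called 0 of the 40 and 0 of all genes with group only (16 of the 40 and 560 genes had an unadjusted p under 0.05, and DESeq2 called 43 genes and 0 of the 40), and with the block 109 genes (0.813%; 0.634% were higher) and 0 of the 40, at a lowest adjusted p of 0.102. Without 016, with the block, 31 of the 40 rose (1.21% of genes were called higher). Non-overlap of the 3 Full Tumor with the 3 Control libraries held for Mx1, Bst2 and Parp9 (4.59% of all genes were higher in this way).

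Tumor material without myelin was set against Control next. All 40 genes were higher in 957 and in 958, with 35 and 36 at least 2-fold (4.48% and 6.09% of all genes) and medians of 1.63 and 1.94, and 17 of the 40 were higher in 016, with a median of −0.06. With group only 0 of the 40 were called (0% of genes) in edgeR's quasi-likelihood test. In that test 30 of the 40 and 548 of all genes had an unadjusted p under 0.05. DESeq2 called 3 of the 40, and its count over all genes is given with the other settings below. With the block 1 was called, Parp9 (0.745% of genes were called and 0.559% were higher; adjusted p = 0.0490). Without 016 as well, 36 rose (1.05% of genes were higher), all but Oasl1, Cmpk2, Samd9l and Trim25. In 10 of the 40 the 3 libraries were all above the 3 Controls (4.25% of all genes), among them Dhx58, Ifit2, Trim30a and Lgals3bp.

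Myelin on its own was not called to change any of the 40 against Control. Their median log2 fold change was −0.30 (−0.36 with the block), and 12, 13 and 5 of the 40 were higher in Myelin Alone in 957, 958 and 016, with medians of −0.23, −0.11 and −0.47. At least 2-fold lower were 5, 5 and 10 of them (3.03%, 5.56% and 3.24% of all genes). The 3 Myelin Alone libraries all lay below the 3 Controls for Ifit2, Oas2, Isg15, Trim25, Trim30a and Parp14 (2.57% of all genes). In edgeR's quasi-likelihood test with group only 0 genes passed, 1 of the 40 and 279 of all genes having an unadjusted p under 0.05; DESeq2 called 11 genes and 0 of the 40. The block gave 5 genes (0.0373%) and 0 of the 40. Control and Myelin Alone 016 differed by more than 2-fold for Ifit1, which was at 31.6 and 9.15 CPM there.

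Removing myelin from the tumor material was not called to change any of the 40 either. Full Tumor was lower than Tumor without Myelin by a median of 0.24 on the log2 scale, a difference of −0.24, with 12, 2 and 3 of the 40 higher in Full Tumor in 957, 958 and 016 and medians of −0.14, −0.27 and −0.25. At least 2-fold lower were 0, 2 and 5 (4.03%, 6.17% and 1.78% of all genes). edgeR's quasi-likelihood test called 0 genes, 0 of the 40 and 161 of all genes had an unadjusted p under 0.05, and DESeq2 called 5 genes and 0 of the 40. With group only, which does not keep the numbers paired, the median ran from −0.61 without Tumor without Myelin 016 to 0.12 without Full Tumor 016, and it was also above 0 without Tumor without Myelin 958 (0.08). With the block it was −0.24. The effect of myelin with tumor minus its effect without tumor was called for 0 of the 40 and 0 of all genes (0 and 153 at an unadjusted p under 0.05; DESeq2 also called 0 of the 40), with a median of 0.10 (0.18 with the block) that ran from −0.23 to 0.52 when 1 library was left out, lowest without Tumor without Myelin 016 and highest without Full Tumor 016; it was below 0 as well without Full Tumor 957 (−0.13) or 958 (−0.12), Control 016 (−0.011) or number 016 (−0.088). These comparisons share libraries with those against Control.

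Against Myelin Alone in place of Control, Tumor without Myelin 016 was higher for 34 of the 40, with a median of 0.42 and 7 at least 2-fold (4.92% of all genes), and Full Tumor 016 for 25, with a median of 0.11 and 1 at least 2-fold (4.12%). In 957 and 958 all 40 were higher in both comparisons. For 25 of the 40 the 3 Tumor without Myelin libraries all lay above the 3 Myelin Alone libraries (4.29% of all genes), and for 10 the 3 Full Tumor libraries did (3.62%). The direction of the 40 genes in 016 therefore differed by whether Control 016 or Myelin Alone 016 was the reference.

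The rest of the interferon pathway was measured in the same fits. Of 20 listed interferon ligand genes, most of them type I, 2 had a row, Ifnb1 and Ifnk, and neither passed the low-count filter; Ifnb1 was at 0 in 11 of the 12 libraries and at 0.061 CPM in Tumor without Myelin 016, under its limit of 0.182 CPM. Of the 5 tested receptor genes 0 were called in the tumor effect of any number; Ifnar1 was at 108 to 141 CPM in Control and 122 to 199 in Full Tumor. Irf7, the regulator that amplifies interferon production, was at 33.6, 29.4 and 36.3 CPM in Control, 22.4, 19.0 and 14.5 in Myelin Alone, 398, 518 and 30.0 in Tumor without Myelin, then 377, 385 and 16.4 in Full Tumor. Its difference between the numbers was the first of all 13414 genes by p (−4.10, adjusted p = 0.00143). Stat2 stood at 98.5, 92.5 and 40.6 CPM in Full Tumor against 37.2, 45.6 and 35.1 in Control. Of the 11 tested JAK-STAT and IRF genes, the tumor effect was called higher for 3 in 957, 4 in 958 and 0 in 016. Its medians over the 11 were 0.12, 0.14 and 0.11. For the 13 nucleic acid sensing genes the counts were 1, 1 and 1, and for the 7 tested feedback inhibitors 0, 2 and 0. For the 9 tested interferon-gamma associated genes they were 2, 2 and 0. Of all genes 0.798%, 1.19% and 0.887% were called higher.

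Number 016 against the mean of 957 and 958, over all groups, called 16 of the 40, all lower in 016 (15% of all genes were called lower), with a median of −0.66. This level takes in the tumor libraries. In Control the median of the 40, relative to each gene's mean, was −0.26 for 016 against −0.50 and −0.56 for 957 and 958. In Myelin Alone it was −0.79 against −0.76 and −0.66. Among genes higher in Control 016, Usp18 stood at 52.1 CPM against 11.4 and 9.05, and Ifitm3 at 463 against 189 and 217. Ifit1, which binds viral RNA caps, was at 31.6 against 4.36 and 3.02. Oas3 was lower there, at 67.1 against 98.0 and 82.9.

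Several of the 40 genes are neighbours in the genome. Ifit2, Ifit3 and Ifit1 lie within 1 cluster on chromosome 19, Oas2, Oas3 and Oas1a on chromosome 5 with 3244 bases between Oas2 and Oas3, and Rsad2 and Cmpk2 lie on chromosome 12 on opposite strands, 12751 bases apart. Rsad2 (viperin) makes a chain-terminating nucleotide, and Cmpk2 supplies a nucleotide kinase. As a description, the mean tumor effect of 957 and 958 had a median of 1.64 over the 13 genes with an ISRE core (1.15 to 6.07), 1.35 over the 16 matched genes without (0.38 to 5.06) and 2.72 over the 11 with no matched window (1.49 to 5.22). The ranges overlap, and the unmatched genes include Mx1, Mx2 and Usp18.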

How the data were processed

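The authors deposited a table of unnormalized whole-number counts for each gene, on mm10 per the submitters' processing notes; the sources used here name no aligner, counting program or strand setting. CPM (library total times TMM factor), fold changes and tests were computed here. edgeR 4.0.16 (R 4.3.3, glmQLFit, glmQLFTest, filterByExpr) was fitted on 12 libraries with group as the only term, with two-sided p-values adjusted by Benjamini-Hochberg over 13414 genes and a threshold of 0.05. The SE is approximate, from the fold change and the F statistic. Pairs of libraries with the same mn number deviated from their group means together (18 of 18 correlations over 0.1, median 0.438, 11 of 12 libraries best with their own number), so the numbers pair the libraries. Further fits added the number, or tumor by number. The coefficient of variation was 0.414 with group only, 0.266 with the block and 0.239 with tumor by number. No 2 libraries of a group agreed within counting noise (chi-square per degree of freedom 23.9 to 142). The scripts were checked on simulated data.

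The genes, the lists and both comparisons of numbers were chosen with earlier results of these data known. Those results had shown that number 016 differed from the others and that its interferon medians differed. Genes with every library's value are those called in any of 8 comparisons, with or without the block, up to 12 by adjusted p, plus per class the highest mean CPM and the largest fold change in Full Tumor against Control with the block. Promoters are from RefSeq (GRCm38.p6), exon lengths and shared 50-base stretches from GENCODE M21 (GRCm38). Alternatives were size factors, library totals, no filter, DESeq2 1.42.0, limma-voom 3.58.1, the block, and leaving out each library or number; the fits within numbers and with the block without 016 were added after the data had been seen. Limits of 3 counts cover counting error only.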

Additional observations from a re-analysis of the deposited data

Results flagged for a closer look

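For 18 genes the tumor effect differed between the mn numbers in edgeR's quasi-likelihood test with tumor by number (adjusted p under 0.05 over all tested genes). Each value is the effect in 016 minus the mean of 957 and 958, on the log2 scale. Of the oligoadenylate synthetase family, Oas1a stood at −2.20, Oas2 at −2.10, Oas3 at −1.50, Oasl1 at −5.40 and Oasl2 at −2.80. Ifit3 stood at −6.09, Usp18 at −4.29, Rtp4, a chaperone of receptor transport, at −3.22 and Cmpk2 at −3.11. Xaf1 was at −2.56, Ifi27l2a at −2.29, Dhx58 at −2.06 and Ifitm3 at −1.94. Ly6e was at −1.74, Lgals3bp at −1.50, Parp14 at −1.49, Trim30a at −1.41 and Ifi35 at −1.31. Ifit3 and Oas1a share reads with the near copies Ifit3b and Oas1g.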

How the results depend on the processing

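For genes called, Full Tumor against Control gave 0 with group only, and 3 with no low-count filter, 43 with DESeq2, 109 with the replicate block, 183 with the block and without 016, and 0 to 69 with a library or number left out; of the 40, 31 were called with the block and without 016, and 0 to 19 with a library or number left out. Tumor without Myelin against Control gave 0, 1, 54, 100, 153 and 0 to 61 genes in that order; of the 40, DESeq2 called 3, the block 1, the block without 016 called 36, and leaving out a library or number 0 to 21. Myelin Alone against Control gave 11 genes with DESeq2, 5 with the block and 9 with the block without 016. Full Tumor against Tumor without Myelin gave 5 with DESeq2, and the median ran from −0.61 to 0.12 with a library or number left out. The median of the difference of the 2 myelin effects ran from −0.23 to 0.52.

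Tumor against no tumor called 10 genes, 2 with library totals alone, 48 with no filter, 174 with DESeq2, 6 with limma-voom, 302 with the block, 259 with the block without 016, 118, 182 and 169 in numbers 957, 958 and 016, and 0 to 115 with a library or number left out. Of the 40 it called 0, 11 with no filter, 24 with DESeq2, 16 with the block, 39 with the block without 016, 31 and 36 in 957 and 958, and 0 to 35 with a library or number left out. The median was 0.0060 in 016. The tumor effect by number called 39 genes, 271 with no filter, 291 with DESeq2 and 1 to 71 with a library or number left out; of the 40 these were 18, 32, 32 and 0 to 23. Number 016 against the others called 16 of the 40, 30 with limma-voom and 6 to 28 with a library or number left out, with 1649 to 4830 genes. Leaving out number 016 could not be done for the 2 comparisons of numbers.

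Within 016 the tumor effect was above 0 for 21 of the 40 genes; among the genes with every library's value given, it was below 0 for Oas1a (−0.56), Oas3 (−0.24), Ifit3 (−0.014), Oasl1 (−0.49), Usp18 (−1.10), Ifitm3 (−0.24), Xaf1 (−0.56), Trim25 (−0.10), Ly6e (−0.18) and Mx2 (−0.52). With a library or number left out, Trim25 ran from −0.071 to 0.28 in Tumor without Myelin against Control, and the tumor effect by number of Samd9l from −0.54 to 0.23. The cause of these changes was not tested. Leaving out libraries takes residual degrees of freedom from the fit, and the 4 left with tumor by number limit what the test can call.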

Other observations

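Besides the 18 genes above, 21 others were called in the tumor effect by mn number, 20 of them with a smaller effect in 016. Several belong to antigen presentation by class I molecules: H2-K1 (−0.87), H2-D1 (−0.62), H2-T23 (−1.25) and B2m (−0.72), the light chain of those molecules. Others were further interferon-inducible genes, among them the guanosine triphosphatases Irgm1 (−1.86) and Ifi47 (−1.98) and the nucleic acid-binding Ifi204 (−1.24) and Mndal (−1.78). Oas1g and Ifit3b are near copies of Oas1a and Ifit3, whereas Trim30a shares only 5.98% of its 50-base stretches with Trim30d. The exception was Ncapd3, a condensin subunit, with a higher effect in 016 (1.82). These genes were named after their values had been seen.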
